A study of Mus musculus with 14 samples.

Results

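The genes described here serve coenzyme Q, the lipid that carries electrons inside the inner mitochondrial membrane. Most take part in making it, while the product of Coq10a binds it. The genes were chosen by name as 10 genes of coenzyme Q synthesis (Pdss1, Pdss2, Coq2, Coq3, Coq4, Coq5, Coq6, Coq7, Coq9 and Coq10a). All 10 were found in a table of 35275 genes, and all 10 were among the 13079 genes that passed the filter on low values. RNA sequencing was done on brown adipose tissue of 8-week-old C57BL/6 mice whose Lrpprc alleles were floxed (LrpprcFF). Controls carried no Cre and knockouts carried Ucp1-Cre in addition, so both genotypes share the floxed alleles. The Ucp1 promoter drives the recombinase in brown and beige adipocytes, and other cells of the tissue keep Lrpprc. Each genotype was housed at room temperature (22 °C, 4 controls and 4 knockouts) or at thermoneutrality (30 °C, 3 controls and 3 knockouts), and each of the 14 libraries came from 1 animal.

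Coenzyme Q is built in the mitochondrion from a ring derived from tyrosine and a long isoprenoid tail that comes from the mevalonate pathway. Pdss1 and Pdss2 join isoprene units into the tail, Coq2 attaches the tail to the ring, and a complex of COQ proteins at the inner membrane then adds hydroxyl and methyl groups. Finished coenzyme Q takes electrons from complex I, complex II and several dehydrogenases and passes them to complex III, a flux on which heat production in brown fat depends. LRPPRC stabilises messenger RNAs of the mitochondrial genome, and loss of mitochondrial gene expression has been linked to low coenzyme Q enzymes in other tissues. The comparison of these genes addresses that question for their RNA only. The values used here give neither the amount of the enzymes nor that of coenzyme Q.

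Library depth was 15.9 to 21.3 M fragments, and Lrpprc was lower in the knockouts at both temperatures. Its scaled FPKM was 57.3, 50.6, 36.1 and 25.3 in controls at 22 °C against 10.8, 11.2, 8.85 and 10.97 in knockouts, and 30.3, 31.9 and 32.8 against 7.40, 4.97 and 8.56 at 30 °C. The knockout libraries stood apart in 1 respect that touches every value: transcripts of the mitochondrial genome made up 1.12% to 3.08% of their reads against 13.2% to 19.2% in controls. For that reason each library was multiplied by a factor, 1.06 to 1.22 in controls and 0.835 to 0.955 in knockouts, that brings the nuclear genes expressed in all libraries to a common level. FPKM counts fragments relative to transcript length and library depth, and all levels given here are scaled FPKM unless said otherwise. All 10 brown adipocyte markers were expressed. Ucp1 itself was at 1308 to 3159 in controls and 1475 to 3358 in knockouts at 22 °C. At 30 °C it was lower in knockouts, at 269 to 361 against 565 to 1073 in controls. In whole tissue, fewer cells of a type and less RNA per cell cannot be told apart.

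The members differed widely in level. Coq9, which encodes a lipid-binding partner of the hydroxylase COQ7, was the highest of the 10 in all 14 animals, with a mean of 252.7 over them. Coq10a, whose product binds coenzyme Q and is needed for its work in the respiratory chain, followed at 68.6. Next came the ring-modifying methyltransferase Coq5 (55.2), the ring-attaching enzyme Coq2 (50.4) and the hydroxylase Coq6 (47.9), whose ranges overlapped in the control groups. Coq7, a hydroxylase, averaged 30.1 and Coq3, an O-methyltransferase, 17.5. Coq4, a gene of the COQ complex, and the tail synthases Pdss2 and Pdss1 were the lowest, at 5.27, 4.91 and 4.19, with overlapping ranges in the 22 °C groups. This order is that of the means over all animals and did not hold in each group. In 30 °C knockouts Coq2 (49.6) lay above Coq10a (47.9), and in the 22 °C groups Coq4 (5.47 in controls and 4.79 in knockouts) lay below Pdss2 (5.79 and 5.86). Between 99 (Pdss1) and 10172 (Coq9) reads lay behind each value, as recovered from the FPKM.

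**Figure D1:**
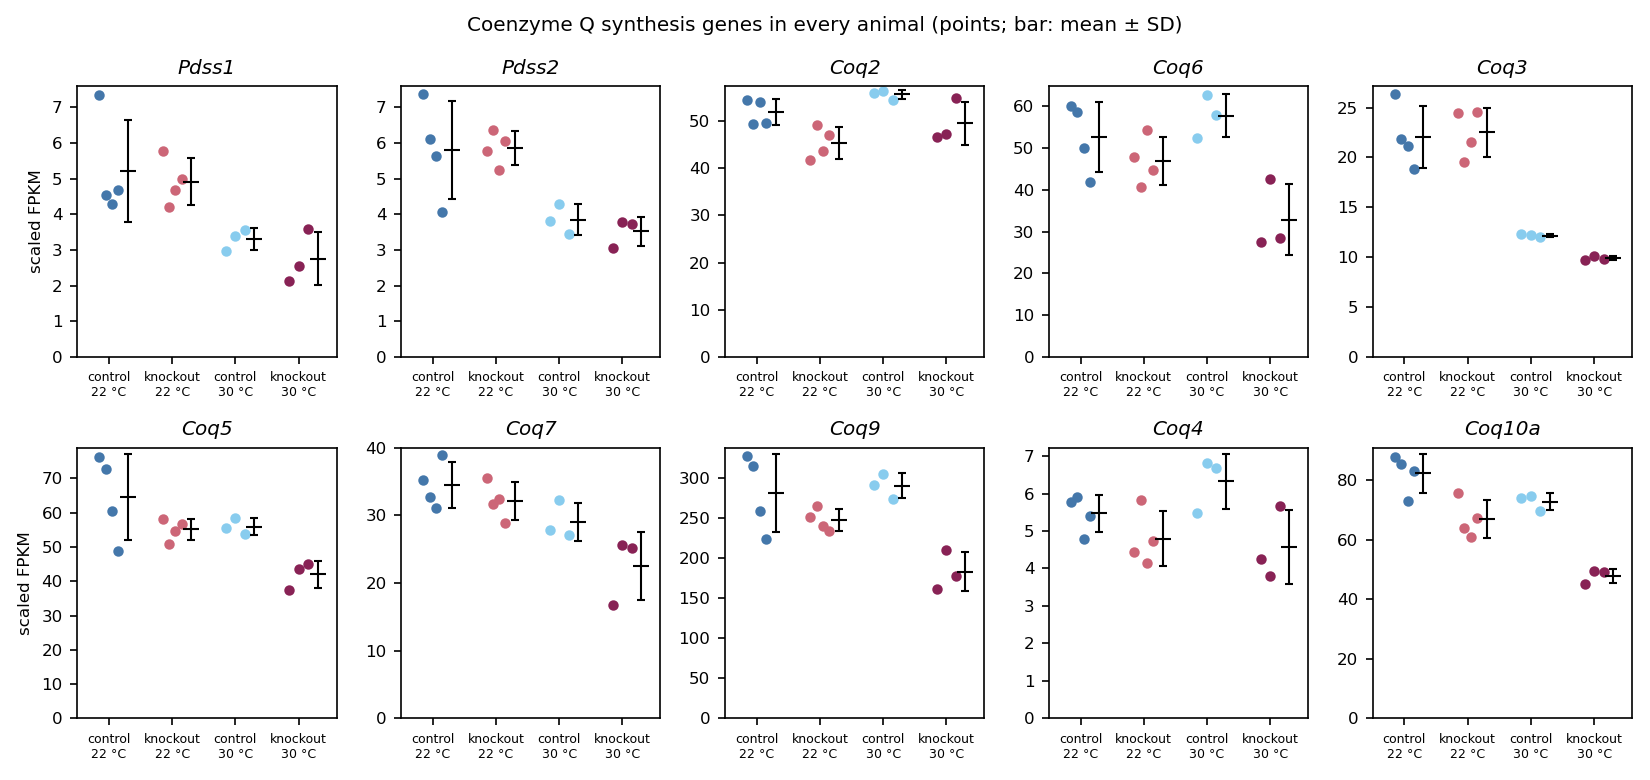
Level of each of the 10 members (scaled FPKM, axes starting at 0) in every animal, by genotype and temperature; points are animals and the black bar is the group's mean ± SD. Coq3 sits at 9.75 to 12.3 in all 6 animals at 30 °C against 18.8 to 26.3 at 22 °C. Every member but Coq2, Coq6, Coq9 and Coq10a included, has its lowest group mean in the knockouts at 30 °C.

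At 22 °C, 0 of the 10 members passed an adjusted p of 0.05 between knockouts and controls in limma's test over all genes, where 1.97% of all genes tested did. The members lay slightly lower in knockouts: 8 of 10 had a log2 fold change below 0, as did 49.5% of all genes, and the members' median was -0.16 against 0.00 for all genes tested. At an unadjusted p of 0.05, 2 members passed (Coq2 and Coq10a), beside 15.8% of all genes. The same test on recovered reads with limma voom also called 0 members, with 2 at the unadjusted threshold.

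The tail synthases were at similar levels in both genotypes at 22 °C. Pdss1 was 7.33, 4.53, 4.28 and 4.67 in controls and 5.78, 4.21, 4.67 and 4.98 in knockouts, a log2 fold change of -0.05 ± 0.16 (SE). For Pdss2 the values were 7.38, 6.10, 5.64 and 4.05 in controls and 5.77, 6.37, 5.24 and 6.06 in knockouts (0.04 ± 0.14). The Pdss2 knockouts lay inside the range of the controls, and 1 Pdss1 knockout lay just under it.

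Coq2, which prenylates the ring, was the 1 member whose 22 °C groups did not overlap, beside 9.38% of all genes (4.53% with the knockouts lower). Controls had 54.5, 49.4, 54.0 and 49.7 (51.9 ± 2.72, SD, n = 4) and knockouts 41.7, 49.2, 43.7 and 47.0 (45.4 ± 3.35). The highest knockout lay just under the lowest control, and the log2 fold change of -0.19 ± 0.08 (SE) had an adjusted p of 0.283.

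Coq10a showed the largest difference among the members at 22 °C. Its levels were 87.96, 85.4, 73.0 and 83.0 in controls (82.4 ± 6.53, SD, n = 4) and 75.7, 64.0, 61.0 and 67.5 in knockouts (67.0 ± 6.34), where 1 knockout overlapped 1 control. The log2 fold change was -0.29 ± 0.09 (SE), with an adjusted p of 0.117 and a 95% confidence interval from -0.49 to -0.10.

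The ring-modifying genes and their partners varied more among the controls than between genotypes. Coq5, the C-methyltransferase, was 76.1, 72.8, 60.5 and 48.8 in controls and 58.3, 51.0, 54.6 and 56.7 in knockouts (-0.21 ± 0.12, adjusted p = 0.461). Coq6 was 60.1, 58.6, 49.95 and 42.0 in controls and 47.9, 40.6, 54.3 and 44.7 in knockouts (-0.16 ± 0.15). Coq9 was 328, 315, 258 and 224 in controls and 251, 265, 240 and 234 in knockouts (-0.17 ± 0.13). In all 3 genes controls 1 and 2 were the highest of the 8 animals and control 4 was the lowest or, for Coq6, the second lowest. The identifiers of controls 3 and 4 begin with another letter (R) than those of the other animals (E). These 2 controls also had the highest summed skeletal muscle markers at 22 °C, 7236 and 4265 against 687 and 538 in controls 1 and 2 and 613 to 1619 in knockouts, and the part of muscle in the result was not tested. Without them Coq5 was lower in knockouts by a log2 fold change of -0.43 (adjusted p = 0.044), and it was the 1 member called. With animals weighted by their spread, 2 members were called lower, Coq5 (-0.38, adjusted p = 0.0255) and Coq10a (-0.36, adjusted p = 0.0118).

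The remaining ring enzymes differed little at 22 °C. Coq3 was 26.3, 21.9, 21.2 and 18.8 in controls and 24.4, 19.5, 21.6 and 24.5 in knockouts (0.03 ± 0.10). Coq7 was 35.3, 32.8, 31.1 and 38.9 against 35.5, 31.7, 32.5 and 28.9 (-0.10 ± 0.13). Coq4 was 5.78, 5.90, 4.78 and 5.41 against 4.45, 5.83, 4.15 and 4.73 (-0.16 ± 0.13). The groups overlapped in all 3 genes, and the 95% confidence interval of the Coq3 difference ran from -0.19 to 0.26.

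At 30 °C, Coq6, Coq9 and Coq10a fell in the knockouts. These 3 of 10 members were called lower by limma (adjusted p under 0.05), beside 5.28% of all genes called lower and 14.1% called in either direction. All 10 members had a log2 fold change below 0, against 41.7% of all genes, with a median of -0.39 against 0.07 for all genes tested. At an unadjusted p of 0.05, 7 members passed, beside 28.3% of all genes. In 6 members every knockout lay below every control (Coq3, Coq5, Coq6, Coq7, Coq9 and Coq10a), as it did for 14.6% of all genes.

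Coq6, which hydroxylates the ring with electrons from ferredoxin, had the largest fall. It was 52.5, 62.8 and 58.0 in controls (57.8 ± 5.196, SD, n = 3) and 27.5, 42.7 and 28.5 in knockouts (32.9 ± 8.53). Knockout 2 lay between the other knockouts and the controls, and no animal overlapped the other group. The log2 fold change was -0.82 ± 0.18 (SE, adjusted p = 0.00976).

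Coq9 fell from the highest level of any member. It was 291, 306 and 275 in controls (290.5 ± 15.6, SD, n = 3) and 162, 210 and 178 in knockouts (183.5 ± 24.7), again with knockout 2 the highest of its group. The log2 fold change was -0.67 ± 0.14 (SE, adjusted p = 0.00983), and without knockout 1 it was -0.58 (adjusted p = 0.0501).

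Coq10a fell with the least spread of the 3. Controls had 74.2, 74.8 and 69.7 (72.9 ± 2.80, SD, n = 3) and knockouts 45.1, 49.5 and 49.1 (47.9 ± 2.43), with a wide gap between the groups. Its log2 fold change was -0.60 ± 0.10 (SE, adjusted p = 0.0034). Coq6 and Coq10a were called lower under all 16 alternative settings run for this comparison, and Coq9 under 13 of them.

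The sequences upstream of the 3 genes that fell at 30 °C are shown because a reader may compare what lies before their start sites. Each is the 250 bases before the first start site in RefSeq's table for GRCm38.p6, on the gene's strand. Coq6 is on the plus strand (chr12:84361718-84361967), Coq9 on the plus strand (chr8:94838163-94838412) and Coq10a on the minus strand (chr10:128370038-128370287). Capitals mark matches to any of 5 motifs searched on both strands: GCATGCGC (NRF1), CCGGAAG (the ETS core), AAGGTCA (a half-site of estrogen-related receptors), TGATGNAA (the C/EBP-ATF element) and CCAAT.
Coq6: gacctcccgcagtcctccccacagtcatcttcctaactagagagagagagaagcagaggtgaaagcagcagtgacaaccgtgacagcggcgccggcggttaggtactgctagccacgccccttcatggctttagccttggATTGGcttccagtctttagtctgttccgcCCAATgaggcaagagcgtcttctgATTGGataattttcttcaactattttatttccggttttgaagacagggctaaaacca
Coq9: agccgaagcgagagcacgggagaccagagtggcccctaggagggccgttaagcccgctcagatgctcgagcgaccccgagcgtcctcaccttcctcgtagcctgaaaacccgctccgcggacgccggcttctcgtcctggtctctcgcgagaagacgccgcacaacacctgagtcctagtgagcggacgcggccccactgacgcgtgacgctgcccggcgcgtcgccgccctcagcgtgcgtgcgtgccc
Coq10a: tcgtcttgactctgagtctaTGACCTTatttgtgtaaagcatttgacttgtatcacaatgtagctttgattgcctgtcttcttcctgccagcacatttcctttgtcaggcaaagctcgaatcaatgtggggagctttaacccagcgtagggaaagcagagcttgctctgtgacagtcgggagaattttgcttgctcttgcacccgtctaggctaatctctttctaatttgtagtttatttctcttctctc
Coq6 held 3 CCAAT matches, which 33.8% of 32851 upstream windows of the same length hold at least once. Coq10a held 1 AAGGTCA match on the opposite strand, a sequence found in 4.08% of the windows, and the Coq9 window held none of the 5. Coq10a has a second start site, whose window is not shown, had a G+C share of 62.0% and held none of the 5. The 3 windows also differed in base composition, with a G+C share of 50.8% for Coq6, 69.2% for Coq9 and 43.6% for Coq10a against a median of 52.4% over all windows. Of the other members with an entry, Coq2 held the NRF1 match (2.26% of windows), Pdss2 the ETS core (6.91%), Pdss1 AAGGTCA and Coq7 2 CCAAT matches. No match was shared by the 3 genes, and TGATGNAA (3.45% of windows) was in none of the members' windows.

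The 4 other genes of the COQ complex were lower on average in 30 °C knockouts without passing the threshold. Coq5 was 55.6, 58.5 and 53.7 in controls and 37.6, 43.6 and 44.9 in knockouts, without overlap (-0.41 ± 0.14, adjusted p = 0.0774). Coq7 was 27.8, 32.2 and 27.1 against 16.7, 25.6 and 25.2, where knockouts 2 and 3 came close to the controls (-0.37 ± 0.15, adjusted p = 0.12). Coq3 was 12.3, 12.2 and 12.0 against 9.75, 10.1 and 9.84, a small difference between tight groups (-0.27 ± 0.12, adjusted p = 0.151). Coq4 was 5.49, 6.82 and 6.67 against 4.26, 3.79 and 5.67 (-0.40 ± 0.14, adjusted p = 0.0808). One knockout of Coq4 lay above one control, and without knockout 3 the difference was -0.54 (adjusted p = 0.0442). Quantile normalization called Coq3 (-0.38, adjusted p = 0.0424) and Coq4 (-0.56, adjusted p = 0.0303) and lost Coq9 (-0.44, adjusted p = 0.103). Coq5 was called with animals weighted by their spread (adjusted p = 0.0132) and in a fit to the 2 groups alone (adjusted p = 0.0473).

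The 3 genes of the steps before ring modification had the smallest estimates at 30 °C, but no test compared the steps. The order also depended on scaling: with quantile normalization Pdss1 and Coq3 were both at -0.38. Adding 1 before taking logs also understates changes of low genes such as Pdss1. As mean levels, knockouts were at 83.23% of controls for Pdss1 and at 81.35% for Coq3. Coq2 was 56.0, 56.5 and 54.5 in controls and 46.7, 47.2 and 54.9 in knockouts, with knockout 3 inside the control range (-0.17 ± 0.10, adjusted p = 0.279). Pdss1 was 2.97, 3.38 and 3.57 against 2.14, 2.54 and 3.58 (-0.21 ± 0.18), and Pdss2 was 3.80, 4.29 and 3.45 against 3.06, 3.78 and 3.72 (-0.10 ± 0.16). The groups overlapped in all 3 genes, with 95% confidence intervals of the log2 difference from -0.38 to 0.04 for Coq2, -0.61 to 0.18 for Pdss1 and -0.44 to 0.24 for Pdss2.

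**Figure D2:**
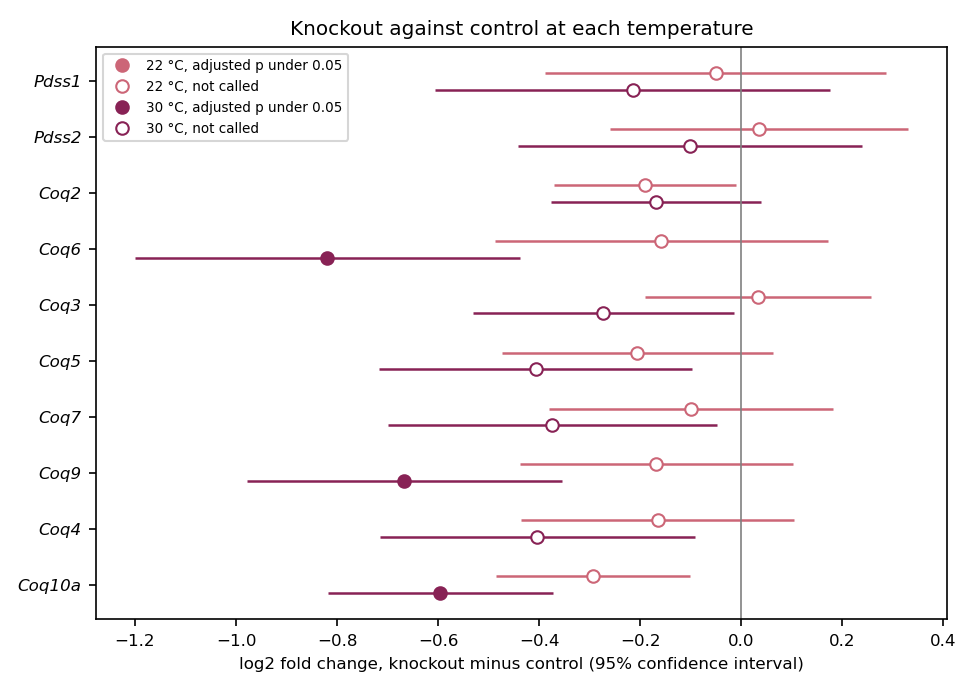
Log2 fold change of each member, knockout minus control, at 22 °C (light) and 30 °C (dark), with 95% confidence intervals from limma; filled points passed an adjusted p of 0.05. The filled points are Coq6, Coq9 and Coq10a at 30 °C, at -0.82, -0.67 and -0.60.

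Markers of some other cells moved with the comparison at 30 °C. The summed level of 12 macrophage markers was 633 to 1962 in knockouts against 115 to 435 in controls, and limma called 10 of the 12 higher. The 5 fibroblast markers summed to 392 to 793 against 200 to 238, and 5 of 5 were called higher. Of all genes, 8.82% were called higher. The 5 endothelial markers did not rise, with sums of 145 to 208 in knockouts against 194 to 199 in controls. Of these 5, 0 were called, beside 14.1% of all genes, and 5 had a log2 fold change below 0, beside 41.7% of all genes. The 10 brown adipocyte markers summed to 6772 to 8773 against 12450 to 15480, and 5 of 10 were called lower, beside 5.28% of all genes. At 22 °C the macrophage sum was 91.4 to 219 against 56.3 to 83.4 with 0 of 12 called by limma. At an unadjusted p of 0.05, 6 of the 12 passed, beside 15.8% of all genes. The fibroblast sum at 22 °C was 127 to 253 in knockouts against 142 to 193 in controls. The endothelial sum there was 140.3 to 190.5 against 111.9 to 264.5. In both lists 0 of 5 were called, beside 1.97% of all genes. The brown adipocyte sum at 22 °C was 13650 to 17940 against 17270 to 23030. Of these 10 markers, 1 was called higher and 1 lower there, beside 1.97% of all genes called in either direction. Skeletal muscle markers were also present and varied widely between animals at 30 °C, with sums of 14530, 4958 and 73.9 in controls 1 to 3 and 9198, 2210 and 7109 in knockouts. The 22 °C sums are given above, and 0 of 10 muscle markers were called at either temperature (0 at an unadjusted p of 0.05). None of the markers was at 0 in every animal of a group, and the part of any of these cells in the members' differences was not tested.

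All animals at 30 °C expressed Xist (9.70 to 15.3) and had Ddx3y at 0.0242 or less, whereas all at 22 °C had Xist at 0.0139 or less and Ddx3y at 16.3 to 23.9. Temperature and sex therefore cannot be told apart wherever 22 °C and 30 °C are set side by side, the difference between the knockout effects included.

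Whether the knockout effect itself differed between the temperatures was tested as the difference of the 2 effects. No member passed, and 0 of all 13079 genes did in limma. At an unadjusted p of 0.05, 3 of 10 members passed, beside 1694 genes, or 13%. Limma voom on recovered reads also called 0, with 2 members and 1392 genes at the unadjusted threshold. Without knockout 2 at 30 °C, 135 genes passed, again with 0 of the 10 members. The log2 fold change at 22 °C was higher than that at 30 °C in 9 of 10 members, while 57.5% of all genes had an estimate below 0. Coq6 had the largest estimate, 0.66 ± 0.23 (SE, adjusted p = 0.267), followed by Coq9 at 0.50 ± 0.19 (adjusted p = 0.294) and Coq10a at 0.30 ± 0.14 (adjusted p = 0.371). Coq2 was at -0.02 ± 0.13. The calls at 30 °C and their absence at 22 °C are therefore not shown to differ.

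Housing temperature went with larger differences than genotype for some members. The temperature comparisons, in which sex differs too, use the same animals as the knockout comparisons.

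In controls, 3 of 10 members were higher at 22 °C than at 30 °C (adjusted p under 0.05), beside 18.2% of all genes called higher and 38.8% called in either direction. Coq3 differed most, at 22.0 ± 3.15 (SD, n = 4) against 12.2 ± 0.158 (SD, n = 3), a log2 fold change of 0.80 ± 0.11 (SE, adjusted p = 0.000487), and no animal overlapped. The tail synthases Pdss1 (0.50 ± 0.17, adjusted p = 0.0323) and Pdss2 (0.47 ± 0.15, adjusted p = 0.0246) were also higher, with the Pdss2 groups overlapping. Each of these 2 calls was lost when 1 of several animals was left out: Pdss1 without control 1 at 22 °C (0.36, adjusted p = 0.0791) or without any 1 of the 30 °C controls, and Pdss2 without control 1 (0.36, adjusted p = 0.066) or 2 at 22 °C or control 1 or 3 at 30 °C. Coq3 was called in every such fit. The 7 other members did not pass, with log2 fold changes between -0.18 (Coq4) and 0.24 (Coq7).

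In knockouts, 8 of 10 members were higher at 22 °C, beside 21.8% of all genes called higher and 51.1% called in either direction. Coq3 again differed most, at 22.5 ± 2.44 (SD, n = 4) against 9.89 ± 0.177 (SD, n = 3), with a log2 fold change of 1.10 ± 0.11 (SE, adjusted p = 3.3e-05). Pdss1 (0.67 ± 0.17) and Pdss2 (0.60 ± 0.15) followed, then Coq6 (0.52 ± 0.17), Coq7 (0.52 ± 0.14), Coq10a (0.47 ± 0.10), Coq9 (0.44 ± 0.14) and Coq5 (0.39 ± 0.13). Coq2 (-0.12 ± 0.09) and Coq4 (0.06 ± 0.14) did not pass, and both genes overlapped between temperatures. The called Coq6 overlapped as well, at 40.6 to 54.3 against 27.5 to 42.7. Without knockout 1 at 30 °C the count was 5 of 10, with Coq5, Coq6 and Coq9 no longer called, and without knockout 3 at 30 °C it was 6. Coq3 had the smallest coefficient of variation among the members at 30 °C, 1.3% in controls and 1.79% in knockouts, against 14.3% and 10.8% at 22 °C. The 30 °C values come from 3 animals per group, and as few as 538 reads lay behind a Coq3 value. Whether such closeness differs from counting noise was not tested, so it does not show that Coq3 is held more tightly at 30 °C.

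**Figure D3:**
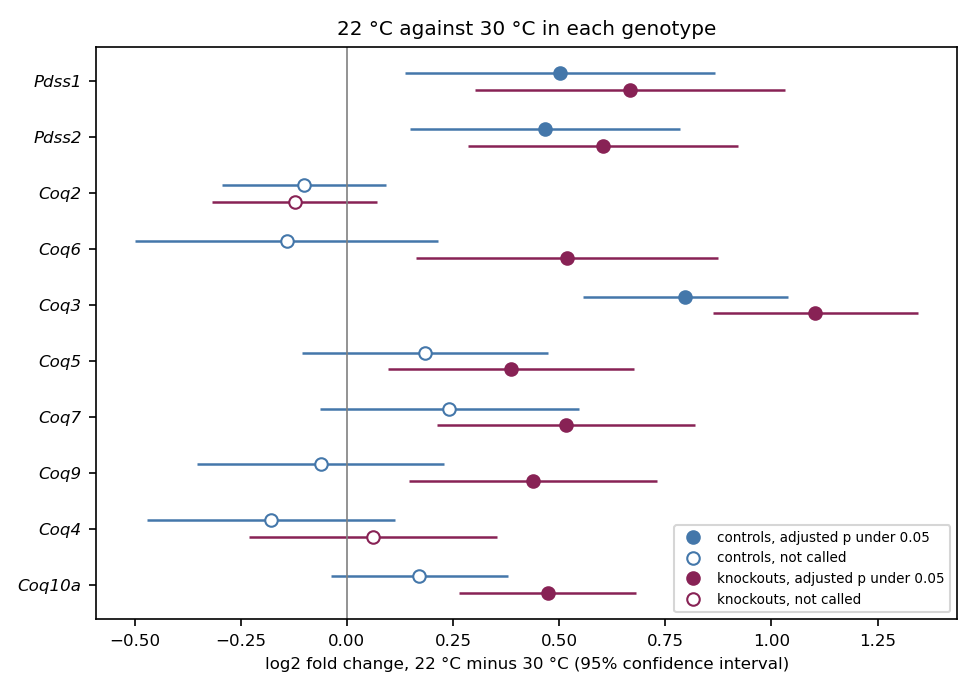
Log2 fold change of each member, 22 °C minus 30 °C, in controls (blue) and knockouts (dark red), with 95% confidence intervals from limma; filled points passed an adjusted p of 0.05. Coq3 is the highest in both genotypes (0.80 and 1.10), and Coq2 and Coq4 are unfilled in both.

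The members did not share 1 profile over the 14 animals. Likeness to their mean profile was measured as the root mean square difference of log2 values, each gene less its own mean. Coq5 was the closest member (0.0854) and Coq3 the farthest (0.329). Outside the list, the closest genes were Atp5c1, a subunit of ATP synthase (0.07), Fars2, the mitochondrial phenylalanyl-tRNA synthetase (0.0715), Glrx3, a glutaredoxin (0.0722), Lias, the lipoic acid synthase (0.0839), and Sdhaf4, an assembly factor of complex II (0.0842). Mean Atp5c1 was 307, 269, 255 and 187 in 22 °C controls, 22 °C knockouts, 30 °C controls and 30 °C knockouts in that order, so its lowest group was also that of most members. These values describe these 14 libraries only.

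Genes around the pathway showed different patterns. Of 12 other genes of coenzyme Q synthesis, regulation or transport, 0 were called at 22 °C by limma, beside 1.97% of all genes. At an unadjusted p of 0.05, 4 passed, beside 15.8% of all genes. Voom gave the same 2 counts for the list. At 30 °C 1 rose and 0 fell, beside 8.82% of all genes called higher and 5.28% called lower. The one that rose was Coq8b, an atypical kinase-like protein of the COQ complex, at 12.3, 14.4 and 14.2 in 30 °C controls and 19.4, 19.98 and 27.0 in knockouts (0.65 ± 0.16, adjusted p = 0.0173). Its paralog Coq8a, higher in mean level than any member in each group, was at 1100, 1018 and 1117 in 30 °C controls against 545, 1079 and 455 in knockouts (-0.74 ± 0.32, adjusted p = 0.144), where knockout 2 lay in the control range. With FPKM as deposited 6 of the 12 were called higher at 22 °C. On that scale 3167 of all 13079 genes were called higher there, and the median of all genes was 0.24. At 30 °C, 3 were called lower with animals weighted by their spread and 2 without knockout 2, where 1378 and 796 of all genes were called lower. The median of the 12 genes at 30 °C was -0.01, beside 0.07 for all genes.

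Among 9 genes of mevalonate and isoprenoid supply, 0 were called at 22 °C by limma and by voom. At an unadjusted p of 0.05, 2 passed in both, beside 15.8% of all genes in limma. At 30 °C 2 fell and 1 rose, beside 5.28% of all genes called lower and 8.82% called higher. Fdft1, squalene synthase, which draws farnesyl units into sterols, was 55.8, 57.1 and 58.7 in controls and 19.3, 25.0 and 12.3 in knockouts (-1.60 ± 0.33, adjusted p = 0.0085). Acat2, which makes acetoacetyl-CoA, fell from 75.4, 92.1 and 90.3 to 33.5, 41.5 and 31.0 (-1.26 ± 0.17, adjusted p = 0.000784). Mvd, mevalonate diphosphate decarboxylase, rose from 5.92, 7.71 and 6.37 to 11.5, 8.33 and 11.8 (0.58 ± 0.16, adjusted p = 0.0268). With FPKM as deposited 2 of the 9 were called higher at 22 °C, where 3167 of all 13079 genes were. At 22 °C, 1 was called lower with animals weighted by their spread or without the R controls, where 503 and 193 of all genes were. The call of Mvd was lost when any of several single animals was left out, whereas Fdft1 and Acat2 were called in all 16 alternatives.

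Among enzymes that hand electrons to coenzyme Q outside complex I, 13 of the 14 listed were tested. By limma and by voom, 0 of them were called at 22 °C, and 7 fell and 0 rose at 30 °C. In limma 5.28% of all genes were called lower at 30 °C and 8.82% higher. At an unadjusted p of 0.05, 5 passed at 22 °C in both, beside 15.8% of all genes in limma. The electron transfer flavoprotein subunits Etfb (-0.90 ± 0.17, adjusted p = 0.00561) and Etfa (-0.72 ± 0.20, adjusted p = 0.0312) were among the 7 that fell. So were the complex II subunits Sdhd (-0.80 ± 0.16), Sdhc (-0.68 ± 0.12) and Sdhb (-0.62 ± 0.13), with adjusted p from 0.00428 to 0.00895. The sulfide oxidase Sqor (-0.67 ± 0.15, adjusted p = 0.0127) and a seventh gene, Dhodh of pyrimidine synthesis, completed the count. The 22 °C count was 1 higher and 3 lower with animals weighted by their spread, 1 higher and 1 lower without the R controls, 1 lower without control 4, and 2 higher with FPKM as deposited. Among all genes, the counts called higher and lower in these settings were 403 and 503, 94 and 193, 62 and 90, and 3167 and 81, in that order. At 30 °C, 11 of the 13 were called lower with animals weighted by their spread and 4 with FPKM as deposited, with quantile normalization or without control 2. The counts of all genes called lower were then 1378, 291, 935 and 356. The median of the 13 was -0.63, against -0.39 for the 10 members and 0.07 for all genes tested. With quantile normalization Etfb was at -0.19 (adjusted p = 0.628), Etfa at -0.31 (0.349) and Sdhb at -0.24 (0.351).

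**Figure D4:**
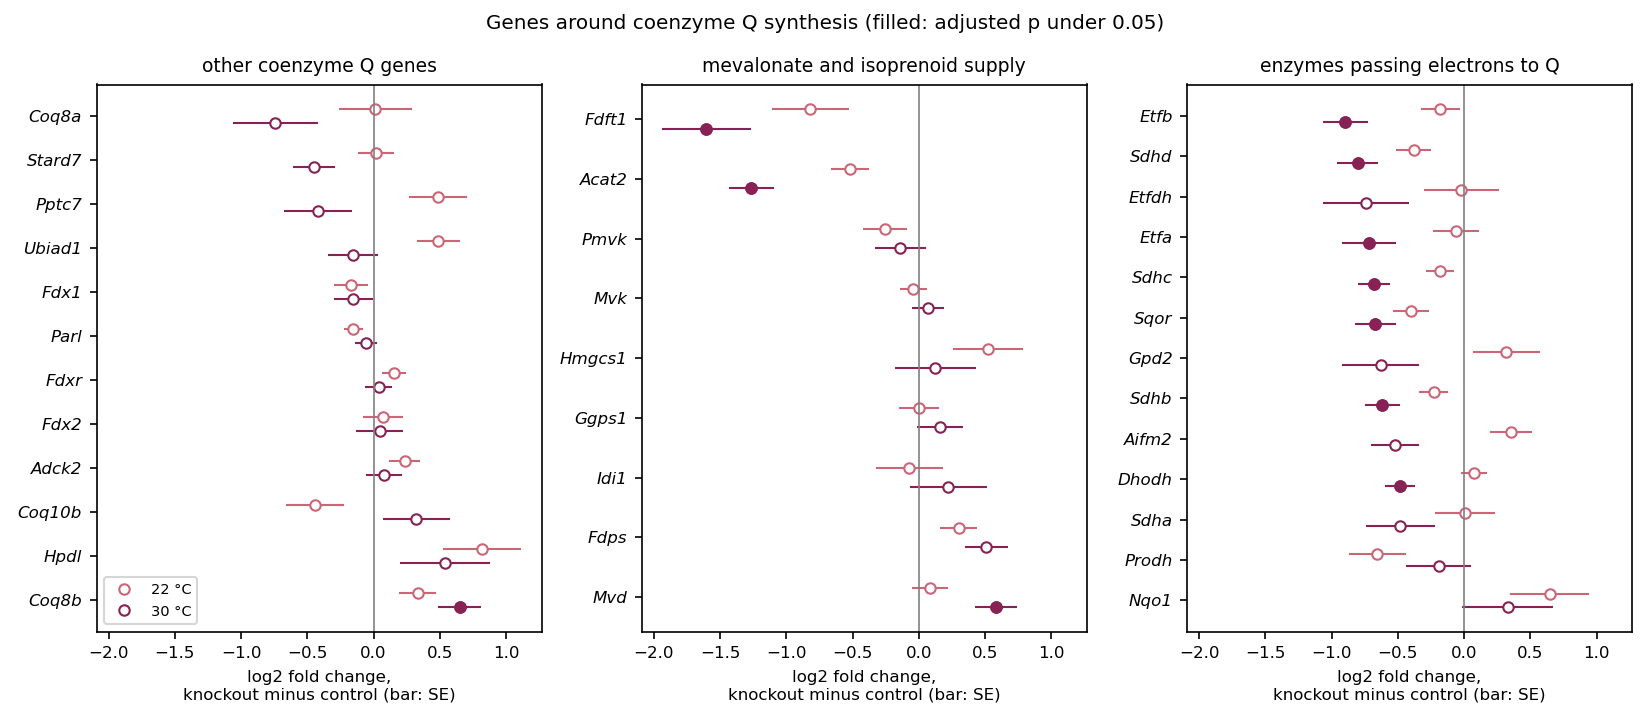
Log2 fold change, knockout minus control, of the genes around coenzyme Q synthesis in 3 lists, at 22 °C (light) and 30 °C (dark), with standard errors; filled points passed an adjusted p of 0.05. At 22 °C no point is filled, and at 30 °C the filled points are Coq8b, 3 mevalonate genes and 7 of the 13 tested enzymes that pass electrons to coenzyme Q.

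The sign of the small differences depended on how libraries were scaled. With FPKM as deposited, the median of all genes moved from 0.00 to 0.24 at 22 °C and from 0.07 to 0.31 at 30 °C. On that scale 0 of 10 members were below 0 at 22 °C, with a median of 0.14, which lies under the shifted median of all genes, and Coq3 was called higher (0.32, adjusted p = 0.0236). At 30 °C the members' median was -0.10 and 6 of 10 were below 0. Coq6 (-0.53, adjusted p = 0.0317) and Coq10a (-0.30, adjusted p = 0.0451) were still called lower there, and Coq9 was at -0.37 (adjusted p = 0.0587). When libraries were instead set to equal sums of nuclear genes, the members had medians of -0.02 and -0.24 at 22 °C and 30 °C, beside 0.12 and 0.19 for all genes.

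**Figure D5:**
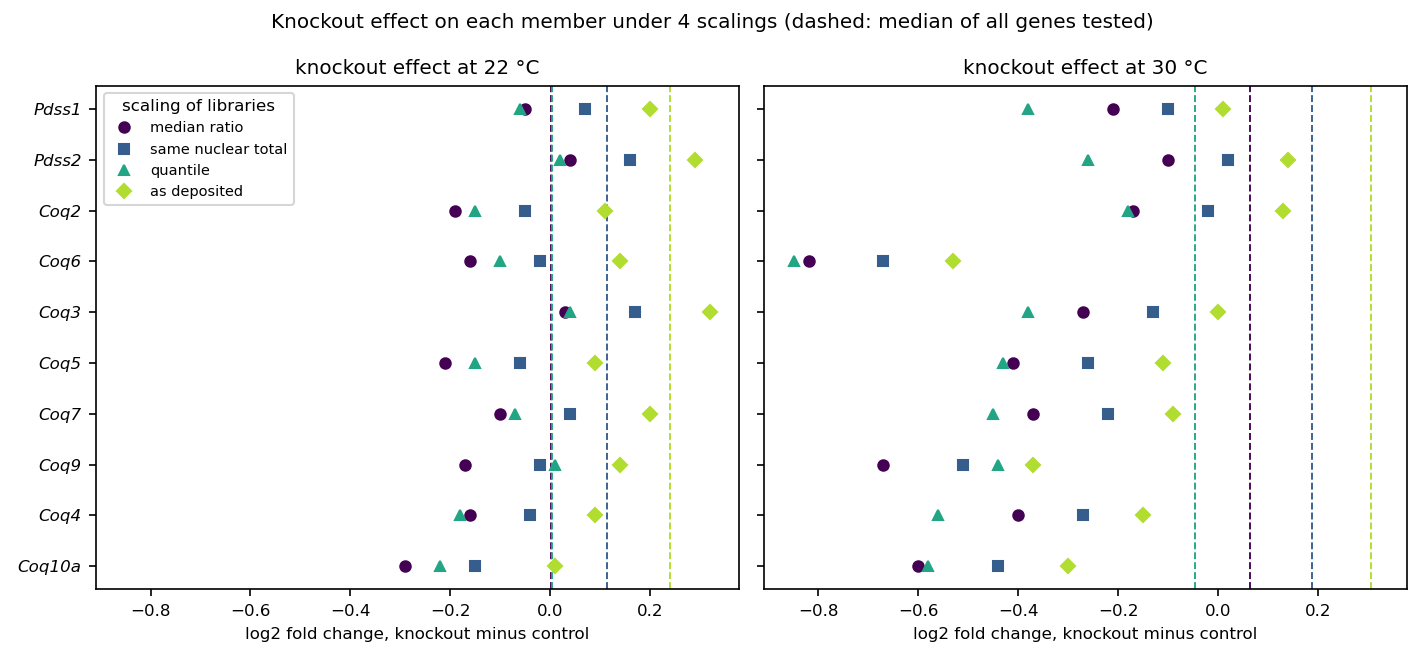
Log2 fold change of each member, knockout minus control, under 4 scalings of the libraries at each temperature; the dashed line of each colour is the median of all genes tested under that scaling. At 30 °C Coq6, Coq9 and Coq10a lie below 0 under all 4 scalings, while at 22 °C the points of FPKM as deposited lie between 0.01 and 0.32.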

How the data were processed

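The 14 mouse libraries fall into 4 groups, taken from the genotype and housing temperature in the labels, which name brown adipocytes although RNA came from homogenized tissue. The authors deposited FPKM values, a column per animal, per the file headers. The genome build was mm9, per the submitters' processing notes; the aligner, counter, annotation and use of strand are not given in the sources used here. Gene symbols came from GENCODE M21 (34490 of 35275 identifiers matched) and upstream sequences from RefSeq's promoter table for GRCm38.p6 (9 of 10 members matched), and no coordinate of another build was used with the values.

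Genes with FPKM of at least 1 in at least 3 animals were tested (13079). The multiplier of a library was the median, over 10049 nuclear genes with FPKM of at least 1 in every library, of the gene's geometric mean divided by its value, and log2(scaled FPKM + 1) was fitted with limma 3.58.1 in R 4.3.3 (a mean for each group, all 14 animals, eBayes with trend). Log2 fold changes are on that scale, which understates changes of low genes such as Pdss1, and Benjamini-Hochberg adjustment ran over all genes tested. On simulated data with 12597 genes at the sizes of the 22 °C comparison, 30% of genes changed by 0.5 on the log2 scale and 98% of those changed by 1 were called, 0 in the wrong direction. Every simulated gene had the same spread beyond counting noise, and no animal stood apart. The real spread varied between genes and animals, so these shares do not give how many real changes would be called.

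Whole reads could be recovered from the FPKM for 99.9% of tested genes (within 0.02 of a whole number), and limma voom on those reads was an alternative chosen after seeing the data. Replicates differed by more than counting noise, with chi-square values of 14.7 to 137 per degree of freedom in 18 pairs. Lrpprc in knockouts and controls was also compared by an exact two-sided permutation test, which gave p = 0.0286 at 22 °C and p = 0.1 at 30 °C, the smallest values these groups allow. The members and lists were chosen with earlier results of these data known. All members were described, called list genes were named up to the 6 largest changes per comparison, and the 5 genes nearest the members' mean profile were named. Dhodh was named beyond that rule. The alternatives covered the pseudocount, the filter, the scaling, the groups in the fit, robust eBayes, sample weights and single animals left out. Choldh had no match to its symbol, and 1 other listed gene is not reported here. Figures were drawn with matplotlib 3.10.9 in Python 3.11.15.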

Additional observations from a re-analysis of the deposited data

Results flagged for a closer look

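In 2 of 22 groups of 4 animals (the members and Lrpprc at 22 °C), 1 animal lay far from the other three by Dixon's test at its 95% critical value, which chance alone passes in about 1 group in 20. Pdss1 was 7.33 in control 1 at 22 °C, while the other controls had 4.28, 4.53 and 4.67. Without that control, the log2 fold change of Pdss1 between temperatures in controls was 0.36 (adjusted p = 0.0791 in limma) in place of 0.50 (adjusted p = 0.0323). Lrpprc was 8.85 in knockout 3 at 22 °C, while the other knockouts had 10.8, 10.97 and 11.2. Without that knockout, the log2 fold change of Lrpprc at 22 °C was -1.79 in place of -1.86.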

How the results depend on the processing

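The direction of all 3 calls at 30 °C (Coq6, Coq9 and Coq10a) held in each of the 16 alternatives run, with log2 fold changes of -1.02 to -0.53, -0.77 to -0.37 and -0.64 to -0.30, and Coq6 and Coq10a kept an adjusted p under 0.05 in limma. The count of members called at 30 °C was 2 to 4 and that for the difference of the effects 0 in every alternative. For members that were not called, the sign could turn.

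With FPKM as deposited, log2 fold changes at 22 °C were 0.20 for Pdss1, 0.11 for Coq2, 0.09 for Coq4, 0.09 for Coq5, 0.14 for Coq6, 0.20 for Coq7, 0.14 for Coq9 and 0.01 for Coq10a, with 1 member and 3248 genes called. At 30 °C they were 0.01 for Pdss1, 0.14 for Pdss2, 0.13 for Coq2 and 0.0009 for Coq3, with 4571 genes called. These shifts follow the median of all genes, given above. Also on that scale, 6 genes were called for the difference of the effects, 1 member for temperature in controls, and Coq4 was at -0.02 for temperature in knockouts. Equal sums of nuclear genes gave 0.07 for Pdss1 and 0.04 for Coq7 at 22 °C (461 genes called), 0.02 for Pdss2 at 30 °C, and 10 genes for the difference of the effects. Quantile normalization gave 0.01 for Coq9 at 22 °C, 0.03 for Coq2 in the difference of the effects (8 genes called) and 0.03 for Coq9 between temperatures in controls. The higher and lower calls among all genes split 119 to 139 at 22 °C and 1154 to 691 at 30 °C. They split 3167 to 81 and 4280 to 291 as deposited, 386 to 75 and 2225 to 409 with equal nuclear sums, and 93 to 90 and 887 to 935 with quantile normalization.

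Sample weights called 906 genes and 2 members (Coq5 and Coq10a) at 22 °C, 3652 genes at 30 °C, 213 for the difference of the effects, and 5 members for temperature in controls (Pdss1, Pdss2, Coq3, Coq5 and Coq10a). Members not called turned sign there: Pdss2 at -0.05 and Coq3 at -0.05 at 22 °C, Coq9 at 0.06 for temperature in controls and Coq4 at -0.0023 in knockouts. Without the R controls, 1 member (Coq5) was called at 22 °C. The uncalled Pdss2 was then at -0.17 and Coq3 at -0.10, Pdss2 was at -0.07 and Coq5 at -0.02 in the difference of the effects, and Coq6 was at 0.04 and Coq9 at 0.15 between temperatures in controls. Fits to the compared groups alone called 86 genes at 22 °C, 1223 at 30 °C and 1 member for temperature in controls. No filter gave 130 genes at 22 °C and 9 for the difference of the effects. A mean FPKM of at least 5 gave 4250 genes for temperature in knockouts and 1 member for temperature in controls; that filter removes Pdss1 and Pdss2 from the test. The cause of the other moves was not tested.

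Leaving out 1 animal at a time gave 71 to 271 genes called at 22 °C, 815 to 2113 at 30 °C and 0 to 135 for the difference of the effects. It gave 1 to 4 members for temperature in controls and 5 to 8 in knockouts. Member log2 fold changes ranged from -0.12 to 0.10 for Pdss1, -0.10 to 0.14 for Pdss2 and -0.04 to 0.12 for Coq3 at 22 °C. Coq2 ranged from -0.06 to 0.05 in the difference of the effects, Coq9 from -0.13 to 0.04 between temperatures in controls and Coq4 from -0.04 to 0.20 in knockouts. The gene counts moved by over 1.5 times without control 1 (105), 2 (127) or 4 (152) or knockout 1 (94) or 2 (71) at 22 °C, and without control 1 (1012) or 2 (909) or knockout 1 (815) or 3 (895) at 30 °C.

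Among genes around the pathway at 30 °C, the call of Etfa was lost in 8 of 16 alternatives, that of Mvd in 6, Dhodh in 5, Coq8b and Sdhb in 3, and Etfb and Sqor in 1. Single animals that ended a call were control 1 or 3 or knockout 1 or 3 for Mvd, control 2 or knockout 1 for Dhodh, control 1 or knockout 3 for Coq8b, and control 2 for Sqor. For Etfa they were control 2 or 3 or knockout 1 or 3. The call of Coq5 between temperatures in knockouts was also lost without knockout 1 or 4 at 22 °C, and that of Coq6 without knockout 3 at 22 °C.

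No paired analysis was possible because the labels give individual animal identifiers and no shared number. On simulated data, where every gene had the same spread, 30% of changes of 0.5 were called. Small differences at 22 °C can go uncalled at this group size, and how often real ones do was not measured.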
